A study of Mus musculus with 10 samples.

Results

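Long terminal repeat (LTR) elements outside the ERVK family were followed in mouse P19 cells by direct RNA sequencing, in which each polyadenylated RNA molecule is read as a native strand and its poly(A) tail is measured on the same molecule. The elements were chosen as every aligned repeat copy of class LTR with a family other than ERVK, with no use of measured values. This gave 2239 of the 50594 regions with an aligned read, under 216 element names. They carried 4934 of 2652217 alignments and 3731 of 2577272 reads (0.145%). ERVL-MaLR contributed 1389 copies and 2348 reads, ERV1 490 copies and 951 reads, ERVL 351 copies and 563 reads, Gypsy 7 copies and 18 reads, and a family called only LTR 2 copies and 2 reads.

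P19 is an established embryonal carcinoma line that behaves like pluripotent stem cells, and the cells were wild type and undifferentiated. They were transfected either with a pool of scrambled siRNAs (siCtl) or with an siRNA against Larp1 (siLarp1), an RNA-binding protein that binds mRNAs starting with a pyrimidine tract and protects poly(A) tails. RNA was collected at 24 h (3 siCtl and 3 siLarp1 libraries) or, after an additional transfection at 24 h, at 48 h (2 siCtl and 2 siLarp1 libraries). All groups were selected on oligo(dT) beads, so RNA without a tail was not sampled. At 24 h the siCtl and siLarp1 libraries went through separate sequencing pools, which makes an effect of the pool and one of the siRNA indistinguishable at that time, and the 48 h libraries shared a pool. Libraries are named by their number in the deposited table (19, 21 and 22 at 24 h, 24 and 25 at 48 h), and the study's methods describe the libraries of a group as biological replicates, so p-values measure the spread between these replicates.

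LTR elements are the remains of retroviruses and related retrotransposons. An intact provirus has an internal part that encodes the viral proteins, flanked on each side by an LTR. The LTR holds a promoter and a polyadenylation signal, so that RNA starts in one LTR and is cleaved and polyadenylated inside the other, short of its far end. Most copies have since recombined to a solitary LTR. ERV1 elements are related to gammaretroviruses and include murine leukaemia virus and VL30 relatives. ERVL elements include MERVL, whose LTR MT2_Mm drives a burst of transcription in the mouse embryo at the 2-cell stage. The MaLR group (MT, ORR1 and MLT elements) has no envelope or complete coding sequence of its own and depended on ERVL for its spread. In embryonic cells many of these elements are silenced by TRIM28 and histone methylation, and others serve as promoters, exons or ends of host transcripts.

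Depth ranged from 141919 to 541959 reads per library, of which 227 to 746 lay on the elements. Larp1, the targeted gene, had 72.4, 82.4 and 73.8 RPM (reads on a feature for every 1000000 reads of the library) in the siCtl libraries and 33.6, 36.3 and 20.5 in the siLarp1 libraries at 24 h. At 48 h the values were 141 and 122 in siCtl and 29.8 and 26.5 in siLarp1, and the groups did not overlap at either time. Pluripotency markers fixed for the cell type were present in 10 of 11 cases, with Pou5f1 highest, and Zfp42 was not listed. Their summed level was 3272 to 3895 RPM in siCtl and 3359 to 4068 in siLarp1 at 24 h, and 3697 to 3833 against 4113 to 4394 at 48 h. The 48 h ranges did not overlap, but 2 libraries per group are too few to judge this. Most of the sum was Pou5f1, at 2339 and 2413 RPM in siCtl and 2767 and 2733 in siLarp1 at 48 h. Of 8 markers tested in limma at 48 h, 6 had a positive log2 fold change and 0 passed an adjusted p of 0.05. Over all features 54.5% were positive and 0.0613% passed. Of the neuronal markers 5 of 6 had reads, led by Stmn2 with 501 over all libraries. The mesoderm and endoderm list had 5 of 6 with reads, nearly all of them the 278 reads of T (Brachyury). Its sum was 25.2 to 73.8 RPM in siCtl and 60.5 to 66.6 in siLarp1 at 24 h, and 148 to 293 against 218 to 398 at 48 h. Its part in the results below was not tested.

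The sequences at the 3′ ends of RNAs that stop in an LTR are shown first. Among 56 copies with at least 5 reads that had a passed tail estimate (quality tag PASS), 8 had a median read end within 10 nt of the end of an annotated transcript. For these the last 30 bases before the read end (before the annotated end where the read ran past it) could be read from the GENCODE transcripts (build mm10, GRCm38). Capitals mark the polyadenylation hexamer AATAAA or, failing that, its variant ATTAAA, searched on the transcript strand only.
MLT1K in an exon of Tug1, chr11:3639794-3639823, minus strand: accAATAAAttcccctttttgtttaagtta
ORR1A4 in an exon of Gm46430, chr13:74604945-74604974, minus strand: agccccaATTAAAggtttgcttttatgaga
ORR1D1 in an exon of A930005H10Rik, chr3:115881589-115881618, minus strand: tttaaaactgtaagccctcAATAAAgtctt
RMER5 in an exon of Mdrl, chrX:36814772-36814801, minus strand: ccatgttccctcataaagtcttaattctct
RLTR30D_RN in an exon of AI506816, chr5:23698300-23698329, minus strand: gtatttgaagAATAAAagttctgtgtcttt
RLTR1A2_MM in an exon of Gm32856, chr8:129271839-129271868, plus strand: tcATTAAActacctcgtatgtttgcattaa
ORR1B1 in an exon of Gm17586, chr11:120635096-120635125, plus strand: gagtctcttcatggcAATAAAacccctgag
ORR1B1 in an exon of Gm20939, chr17:94878292-94878321, plus strand: actacccccaATTAAAtgtcctttataaga

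AATAAA was found in 4 of the 8 windows, ATTAAA alone in 3, and neither in the RMER5 window. Over all 141722 annotated transcripts of at least this length, the last 30 bases held AATAAA in 23.3% and either hexamer in 29.6%. The windows were chosen for lying at an annotated end, so this is a description of them and not a test. At 7 of the 8 copies the reads stopped inside the LTR, and at the ORR1B1 copy in Gm17586 they reached its edge (0 nt) and ran 3 nt past the annotated end. The strand is that of the nearest annotated transcript end, since the table gives no alignment strand. These 8 copies carried 117 PASS reads, from 33 at MLT1K in Tug1 (a nuclear long noncoding RNA) to 5 at each ORR1B1 copy, with median tails of 133 nt at MLT1K, 115 nt at ORR1A4, 117 nt at ORR1D1 and 85.0 nt at RMER5. The MLT1K copy had a median mapping quality of 1, so its reads could have been placed on another sequence of the reference nearly as well.

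Most reads with a PASS tail stopped inside the LTRs, at a distance from the copy's end that differed between families. PASS alignments on ERVL-MaLR LTRs ended a median of 51 nt before the 3′ end of the copy (interquartile range 35 to 55 nt, 994 alignments on 512 copies), and 55.9% of them ended between 40 and 60 nt. On ERV1 LTRs the median was 75 nt (59 to 83 nt, 473 alignments on 218 copies), with 61.1% between 60 and 90 nt. ERVL LTRs were spread more widely, with a median of 50 nt (39.3 to 93.5 nt, 154 alignments on 105 copies). Within each library the ERVL-MaLR median lay between 49 and 52 nt and the ERV1 median between 69 and 78 nt. The ERV1 distance was longer by 24.4 nt on average and in 10 of 10 libraries (2-sided exact sign-flip permutation test, p = 0.00195, the smallest that 10 libraries allow). Members of a family share ancestry, so copies are not independent of each other.

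**Figure D1:**
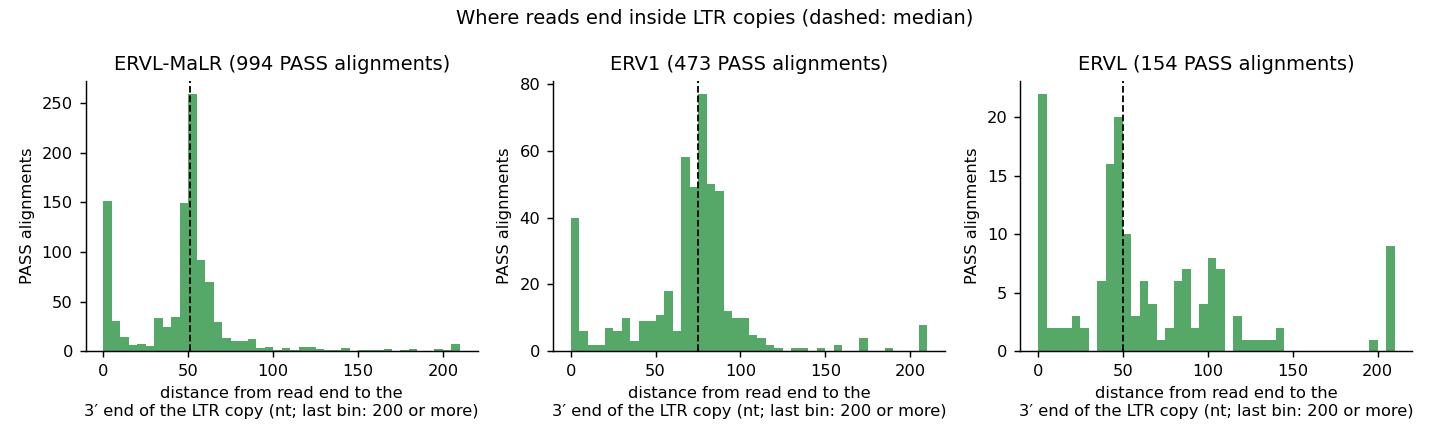
Distance in nt from the read end to the 3′ end of the LTR copy (x axis, last bin 200 nt or more) against the number of PASS alignments (y axis) for ERVL-MaLR, ERV1 and ERVL, with dashed lines at the medians of 51, 75 and 50 nt. ERVL-MaLR and ERV1 each form 1 main peak away from the copy's end besides a smaller bar at 0 nt, whereas ERVL forms several.

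The elements with the most PASS reads mostly lay near the position of their family. Among ERVL-MaLR elements the median distance was 54 nt in MTA_Mm (58 copies), 51 nt in ORR1B1 (28 copies), 51 nt in MTD (43 copies), 51 nt in ORR1A2 (42 copies) and 48 nt in ORR1A4 (21 copies). Among ERV1 elements it was 83 nt in MMERGLN_LTR (59 copies), 69 nt in RLTR4_Mm (26 copies) and 74 nt in RLTR1A2_MM (3 copies). The number of RLTR4_Mm copies is uncertain, since the most read of them had a median mapping quality of 0. Some elements lay elsewhere or were spread widely. RMER5 (ERV1) ended at a median of 20 nt (interquartile range 0 to 31 nt, 35 PASS reads) and RLTR6_Mm at 104 nt. In ERVL-MaLR, ORR1F ended at 3 nt (1 to 43 nt) and MTEa at 39 nt (0 to 62 nt), and ORR1B1 ranged from 23 to 54 nt with 21.5% of its reads within 2 nt of the copy's end. The ERVL peaks separated by element, since MT2_Mm and MT2A both lay at 45 nt and RMER15 at 92 nt. At the level of single copies, the ends of the reads had an interquartile range of at most 5 nt in 36 of the 56 copies with at least 5 PASS reads. The median length of the copies with such reads was 281.5 nt in MTD, 396 nt in MTA_Mm and 430 nt in MMERGLN_LTR, so the read ends lay in the last part of the LTR. Only alignments that reach the end of a read receive a PASS tag, so reads that ran on past the LTR are not in these distances. A read that continued by a few bases beyond a copy would be counted at 0 nt.

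Alignments to internal parts stopped before the end of the read more often than alignments to LTRs. The quality tag SUFFCLIP marks an alignment that stops well before the 3′ end of its read, and the read then continues into sequence outside the copy. Leaving out reads whose signal could not be loaded, this tag was on 41.4% of 3752 alignments on LTRs and 75.8% of 1122 on internal parts. The difference within libraries was 34.4 percentage points on average and had the same sign in 10 of 10 libraries (exact sign-flip permutation test, p = 0.00195, 0.0026 after Benjamini-Hochberg adjustment over 4 tests). Each copy was a separate aligned sequence, and an internal part is flanked by LTRs. A read that runs from the internal part into the LTR is therefore clipped on the internal part by layout. The same read can enter both sides, so the direction was largely set in advance and the test describes only agreement between libraries. In ERV1 the shares were 29.3% and 79.8%, in ERVL-MaLR 43.4% and 73.4%, both with the same sign in 10 of 10 libraries. In ERVL they were 52.6% and 70.4%, higher on the internal part in 8 of 10 libraries (exact p = 0.0352). All the elements together were clipped in 49.3% of alignments, against 62.7% for ERVK, 28.8% for SINE, 18.5% for LINE and 2.25% for mRNA.

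**Figure D2:**
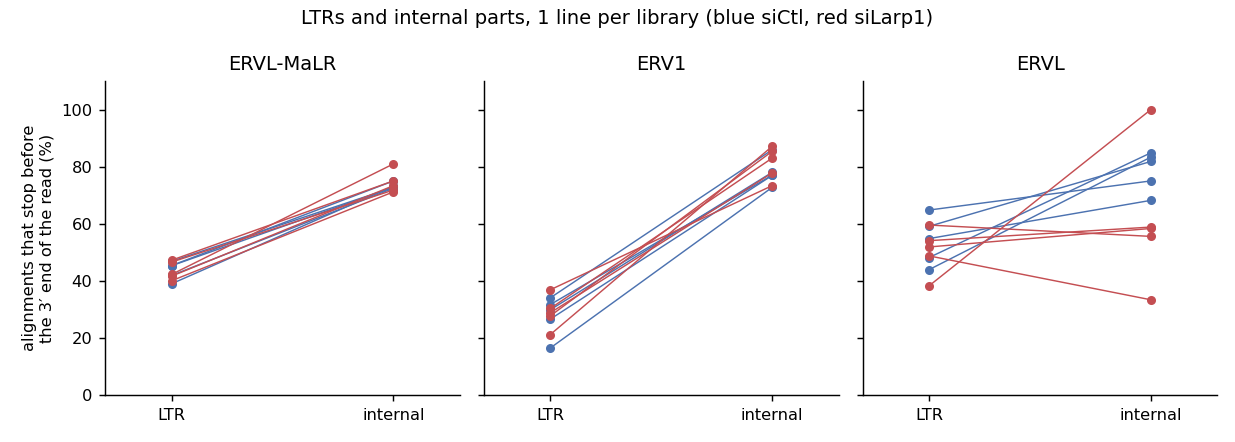
Percent of alignments that stop before the 3′ end of the read (y axis) on LTRs and on internal parts (x axis) of ERVL-MaLR, ERV1 and ERVL elements, with 1 line per library (blue siCtl, red siLarp1, both times). In ERVL-MaLR and ERV1 every line rises, from 43.4% to 73.4% and from 29.3% to 79.8% over all alignments, while in ERVL 2 lines fall.

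The reads were spread thinly over copies. Of the 2239 copies, 1603 (71.6%) had 1 read, and the 10 most read copies held 499 reads (13.4%). ERV1 was the most concentrated, with 37.3% of its reads in 10 copies, against 13.1% in ERVL-MaLR and 18.5% in ERVL. Internal parts made up 363 of the copies. By the GENCODE annotation, with genes on either strand counted, 396 copies (17.7%) overlapped an exon, 817 (36.5%) lay in an intron and 1026 (45.8%) lay between genes. The corresponding shares were 9.64%, 24.9% and 65.5% for ERVK, 14.2%, 44.7% and 41.1% for LINE, and 7.28%, 53.1% and 39.6% for SINE. The exonic copies carried 30.4% of the elements' reads and 46.8% of those of ERV1.

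Some ERV1 elements had most of their reads on 1 or a few copies, while others were spread over many. MMERGLN-int, the internal part of a gammaretrovirus-like element, had 170 reads on 28 copies, of which the copy at chr8:121833275-121840834, in an exon of Gm42047, gave 71. A second MMERGLN-int copy at chr2:156831133-156833492, in an exon of Gm14230, had 58 reads and lies directly beside an RLTR1A2_MM LTR at chr2:156830632-156831132 with 64. The LTR had 49 PASS reads with a median tail of 113 nt and no clipped alignment, while the neighbouring internal part had no PASS read and 74.1% clipped alignments. By library the LTR had 7, 6 and 19 reads in siCtl and 9, 1 and 4 in siLarp1 at 24 h, and 6 and 3 against 7 and 2 at 48 h. The internal part had 6, 6 and 17 against 8, 1 and 4, and 5 and 3 against 6 and 2, so both copies were nearly equal in every library. MMERGLN_LTR had 143 reads over 87 copies, with no copy above 4.2% of them, and RLTR4_Mm, an LTR of murine leukaemia virus relatives, had 97 reads over 38 copies. The most read RLTR4_Mm copies, such as chr8:123434009-123434298 with 18 reads, had a median mapping quality of 0. Their reads had another placement that was equally good, so the spread of RLTR4_Mm over copies is uncertain. RLTR41C at chr11:86209158-86209606, in an exon of Brip1os, had 39 reads with a median tail of 125 nt.

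MuLV-int, the internal part of murine leukaemia virus relatives, had 151 reads, 73.5% of them on a single copy at chr5:23701114-23708710, in an exon of AI506816. Of the 111 reads of this copy 95 also aligned to Apobec3, a cytidine deaminase that restricts retroviruses and lies on chromosome 15. The reference is the C57BL/6J genome and P19 cells derive from a C3H/He mouse, so a copy present only in the cells would be placed on its nearest relative in the reference. Whether this or something else underlies the reads shared with Apobec3 was not tested. The copy had 11, 16 and 19 reads in siCtl and 6, 6 and 18 in siLarp1 at 24 h, and 9 and 7 against 15 and 4 at 48 h. RLTR6-int, another internal part of this group, had 40 reads, and MMVL30-int (VL30) had 19 reads on 12 copies. The LTR RMER5 had 60 reads on 26 copies.

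ERVL-MaLR reads came from many more places. MTD had 225 reads on 112 copies, ORR1B1 223 on 62, MTA_Mm 164 on 81, ORR1A2 143 on 76, ORR1A4 136 on 40 and MTC 119 on 84. The most read copies were an ORR1B1 at chr11:76220847-76221167, in an intron of Glod4, with 59 reads and an ORR1A2 at chr2:170670901-170671246, between genes, with 43. The ORR1A2 copy had 31 PASS reads, a median tail of 96.1 nt and no read on an mRNA. Its reads numbered 2, 8 and 15 in siCtl and 3, 4 and 2 in siLarp1 at 24 h, and 1 and 2 against 1 and 5 at 48 h. At chr7:138888909-138889305 an MTA_Mm LTR with 34 reads adjoined its internal part MTA_Mm-int with 33, of which the LTR had 27 PASS reads and the internal part 1.

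ERVL was the smallest of the 3 larger families. RMER15 had 96 reads on 55 copies, MT2B 67 on 38, MT2A 54 on 28, MT2B1 45 on 19, MT2_Mm 44 on 32 and MERVL_2A-int 39 on 25. MERVL-int, the internal part of the element active at the 2-cell stage, had 12 reads on 11 copies, with at most 3 in any library. MT2_Mm, its LTR, had 5.4, 6.9 and 33.2 RPM in siCtl and 47.1, 6.1 and 35.8 in siLarp1 at 24 h. At 48 h it had 7.0 and 13.5 in siCtl and 9.9 and 0 in siLarp1, so that libraries of 1 group differed more than the groups. The Gypsy copies were old mammalian LTRs, with 8 reads in MamGypLTR2c, 3 in LTR85b, 3 in LTR88a, 2 in LTR85a, and 1 each in LTR81C and MamGypLTR1b. LTR106_Mam and MamRep1527 had 1 read each, both in siLarp1 libraries.

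A large part of the elements' reads also aligned to a gene. Of the 3731 reads, 1492 (39.99%) had an alignment to an mRNA and 2239 (60.01%) had none, a number equal to that of the copies by coincidence. The share with no mRNA alignment was 66.9% in ERV1, 58.6% in ERVL and 58.3% in ERVL-MaLR, against 51.1% in ERVK, 79.2% in SINE and 85.7% in LINE. Joined reads touched 678 genes, 477 of them by 1 read and 24 by at least 10. In 390 joined reads (26.1%) the LTR alignment reached the end of the read and the gene alignment was clipped. In 215 (14.4%) the gene alignment reached the end and the LTR alignment was clipped, in 336 (22.5%) both reached it, in 541 (36.3%) both were clipped, and the signal of the other 10 could not be loaded.

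Several genes shared reads whose alignment to a downstream LTR reached the end of the read. The gene alignment could reach it as well, and such a read cannot be assigned by its end. Among the 24 genes with at least 10 joined reads, the copy used most lay downstream of the gene in 10, on another chromosome in 5, upstream in 4, in an intron in 3 and in an exon in 2. Brcc3, a deubiquitinase, shared 34 of its 140 reads with elements, all 34 with an MTD LTR at chrX:75455561-75455753, 1560 nt beyond the annotated gene. In 32 of these the LTR alignment reached the read's end, and in 2 the gene alignment did. Trim37, a ubiquitin ligase, shared 33 of 98 reads with an MLT1G3 LTR at chr11:87250577-87250904, 29894 nt downstream and within an intron of Ppm1e. In 31 the LTR alignment reached the end, and in 7 the gene alignment did. The 27 PASS reads of that copy ended 33 nt before its 3′ end at the median and at both quartiles, and their median tail was 69.6 nt. The Brcc3 gene alignments had a median mapping quality of 0, so they had another placement that was equally good.

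For other genes the LTR lay close to the annotated end. Bnip3, a mitochondrial mitophagy receptor, had 21 of 677 reads joined to elements, 20 of them on an MTA_Mm LTR 8 nt downstream. Hsp90aa1, the inducible cytosolic HSP90, had 17 of 3737 reads on an MTB LTR 7 nt downstream. The LTR alignment reached the end in all 17, and the gene alignment in 3. Hells, a chromatin remodeller needed for DNA methylation, had 10 of 227 on an MLT1A0 LTR 240 nt downstream. Again the LTR alignment reached the end in all 10, and the gene alignment in 3. Rcn1, a calcium-binding protein of the endoplasmic reticulum, had 10 of 178 on an MTB_Mm LTR in an annotated exon. In 4930522L14Rik, 25 of 61 reads were joined, most often to an ORR1B1 copy 133 nt downstream. The LTR alignment reached the end in 24, and the gene alignment in 4. For C330007P06Rik the copy lay farther off, 8570 nt downstream. That gene had 15 of 36 reads joined, all 15 to the RMER5 copy in Mdrl shown above. The LTR alignment reached the end in all 15, and the gene alignment in 2. The gene alignments had a median mapping quality of 0, as for Brcc3.

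For other genes the copy used most lay upstream. Ccl17, a chemokine, had 12 of its 16 reads joined to an MT2A LTR 17673 nt upstream, and in all 12 the gene alignment reached the read's end. Zfp36l3, an RNA-binding protein of the X chromosome, had 11 of 18 reads joined to an RMER15 LTR 1652 nt upstream. Of these 1 ended on the LTR and 1 on the gene. That RMER15 copy had a median mapping quality of 0, so its reads had another placement that was equally good. It was also the copy used most by Gm14593, with 9 reads. Sf3b3 had 13 of 446 reads joined, all 13 to an MLT1F2 LTR 2129262 nt upstream. Of these 1 ended on the LTR and 2 on the gene. Below 10 joined reads, Tnfrsf18, a receptor of the TNF family, had 9 of 9 reads joined to an RLTR28B LTR 372 nt upstream. Of these 4 ended on the LTR and 3 on the gene. Mocs2 had 9 of 88 joined to an ORR1C1 LTR 14490 nt upstream, and in all 9 the gene alignment reached the end. For Dph5, an enzyme of diphthamide synthesis, 20 of 81 reads were joined, 19 of them to the ORR1D1 copy in A930005H10Rik shown above, 5940 nt upstream, and both alignments reached the end in all 20, so a read could not be assigned to one of the 2 sequences by its end. The copy used most was not upstream in Apobec3, where it lay on another chromosome, or in Glod4, where it lay in an intron of the gene. Apobec3 shared 97 of 143 reads, of which 11 ended on the element and 12 on the gene, and Glod4 shared 46 of 191, of which 9 and 8 did.

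**Figure D3:**
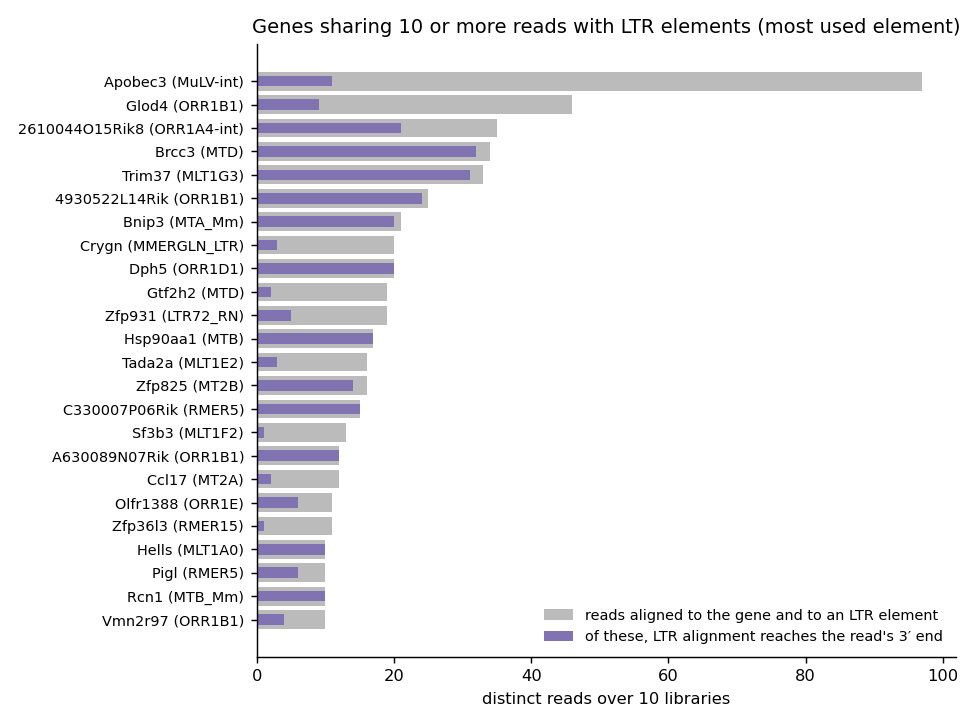
Distinct reads over the 10 libraries (x axis) that align to a gene and to an LTR element outside ERVK (grey bars), and those among them whose LTR alignment reaches the read's 3′ end (purple bars), for the 24 genes with at least 10 such reads (y axis, with the element used most). The LTR alignment reaches the end in nearly all joined reads of Brcc3, Trim37, Bnip3 and Hsp90aa1, with 32 of 34, 31 of 33, 20 of 21 and 17 of 17. The gene alignment reaches it in 2, 7, 5 and 3 of their joined reads. In Apobec3 and Glod4 few LTR alignments do so, with 11 of 97 and 9 of 46.

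The effect of Larp1 depletion on the read share of the elements was tested next. Over all reads the elements had 1315, 1296 and 1376 RPM in siCtl and 1620, 1374 and 1494 in siLarp1 at 24 h. At 48 h they had 1698 and 1549 in siCtl and 1760 and 1519 in siLarp1. The groups overlapped at both times, with means of 1329 ± 42.2 against 1496 ± 123 (SD, n = 3) and 1624 ± 106 against 1640 ± 171 (SD, n = 2), and the 2-sided exact permutation test stratified by time gave p = 0.25. A test at 24 h alone cannot go below 0.1, and one at 48 h alone cannot go below 0.333. Because the RNA comes from many cells, a change in the number of RNA molecules per cell cannot be told apart from a change in the share of cells that express an element.

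Reads with no mRNA alignment still include reads on copies that overlap an annotated exon. Examples are 40 of 40 reads on MLT1K in Tug1 and 58 of 58 on MMERGLN-int in Gm14230. Among all reads with no mRNA alignment the elements were higher in siLarp1. They had 773, 744 and 803 RPM in siCtl and 908, 908 and 901 in siLarp1 at 24 h, and 994 and 968 against 1106 and 1002 at 48 h. The groups did not overlap at either time, and siLarp1 was at 117% of siCtl at 24 h and 107% at 48 h. The mean difference was 103 RPM (stratified exact permutation test, p = 0.0167, the smallest that the design allows), and after Benjamini-Hochberg adjustment over the 20 read share and tail tests the value was 0.0833, so it did not pass. All reads with no mRNA alignment, whatever their class, were also more frequent in siLarp1, with 11552 against 12260 RPM at 24 h and 13357 against 15111 at 48 h (exact permutation p = 0.0667). As a percent of those reads the elements were at 6.70 in siCtl and 7.41 in siLarp1 at 24 h, and 7.34 against 6.98 at 48 h (exact permutation p = 0.667, a denominator chosen after the data were seen). The direction therefore differed between times on that scale.

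**Figure D4:**
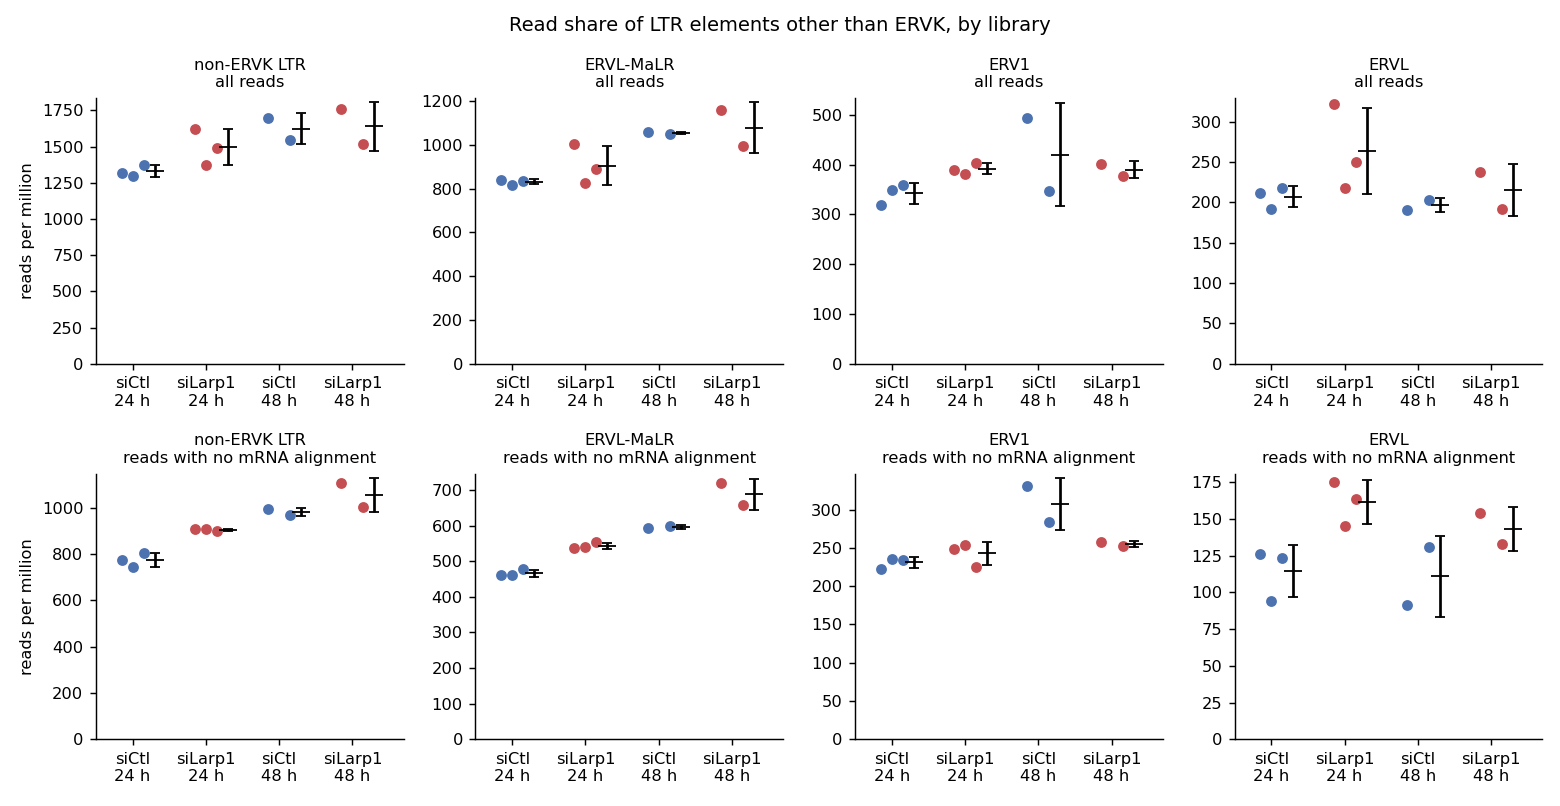
Read share in RPM, labelled on the y axis as reads per 1000000, for all elements outside ERVK, ERVL-MaLR, ERV1 and ERVL, over all reads (upper row) and over reads with no mRNA alignment (lower row), in siCtl (blue) and siLarp1 (red) at 24 h and 48 h, with 1 point per library and bars for the mean ± SD (n = 3 at 24 h, n = 2 at 48 h). In the lower row the siLarp1 points lie above siCtl for all elements, for example 901 to 908 against 744 to 803 at 24 h, while ERV1 at 48 h lies lower, at 252 and 258 against 284 and 331.

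By family, ERVL-MaLR and ERVL reads with no mRNA alignment were higher in siLarp1 at both times, and ERV1 reads were not. ERVL-MaLR reads with no mRNA alignment were at 461, 460 and 478 RPM in siCtl and 538, 539 and 553 in siLarp1 at 24 h. At 48 h they were at 592 and 599 against 719 and 657, and the groups did not overlap at either time. The stratified exact permutation test gave p = 0.0167, with an adjusted value of 0.025 over the 3 families and 0.0833 over the 20 tests. ERVL was at 126, 93.9 and 124 in siCtl and 175, 145 and 164 in siLarp1 at 24 h, and at 91.6 and 131 against 154 and 133 at 48 h, with the same p and adjusted values, although without library 24 of siLarp1 at 48 h the exact permutation p was 0.0667. ERV1 overlapped at 24 h, at 223, 236 and 234 against 249, 254 and 225, and was lower in siLarp1 at 48 h, at 331 and 284 against 258 and 252 (exact permutation p = 0.333). Over all reads no family passed, with exact permutation p = 0.383 for ERVL-MaLR, 0.883 for ERV1 and 0.0667 for ERVL. Without library 24 of siCtl at 48 h the ERV1 difference was 46.3 RPM at exact permutation p = 0.0167, and without library 25 it was -27.0 RPM. The families were not tested against each other, and none was set as a percent of all reads with no mRNA alignment.

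The elements were also set beside other repeats. Set against LINE reads in the same library, the log2 ratio of reads with no mRNA alignment was higher by 0.18 in siLarp1 (exact permutation p = 0.0333, adjusted 0.2 over 6 ratios). The other 5 ratios, to ERVK, SINE and LINE, had exact permutation p above that value and did not pass. ERVK reads with no mRNA alignment stood at 3057 ± 353 against 3361 ± 299.95 RPM (SD, n = 3) at 24 h, with overlap, and at 4240 ± 7.89 against 5172 ± 232 (SD, n = 2) at 48 h, without overlap. These were 110% and 122% of siCtl (stratified exact permutation p = 0.0833), against 117% and 107% for the elements. SINE stood at 105% and 111% (exact permutation p = 0.0667) and LINE at 104% and 93.6% (exact permutation p = 0.683).

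No single element passed the threshold of an adjusted p of 0.05. In the limma voom fit 34 elements had at least 30 reads at 24 h, among 5584 genes and repeat elements tested, and 0 of them were called, while 0.0179% of all features were. At 48 h 14 elements were tested among 3265 features and 0 were called, against 0.0613% of all features. The difference of the effect between times was tested for 14 elements, with 0 called and 0% of 3260 features called. At an unadjusted p under 0.05 there were 2 elements at 24 h, both higher, and 0 at 48 h, and a limma trend fit also called 0 elements, with 1 and 0 at an unadjusted p under 0.05. Of the 34 elements 22 had a positive log2 fold change with a median of 0.16, against a median of 0.01 and 50.7% positive over all features. Of the 14 at 48 h 11 were positive with a median of 0.15, against 0.04 and 54.5%.

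The 2 elements at an unadjusted p under 0.05 were ORR1D1 and RMER15, at 24 h. ORR1D1 had 13, 10 and 20 reads in siCtl and 11, 7 and 11 in the less deeply sequenced siLarp1 libraries, a log2 fold change of 0.86 (SE 0.34, limma adjusted p = 0.827), and one of 0.23 (SE 0.44, adjusted p = 0.980) at 48 h. RMER15 was at 37.6, 29.8 and 35.1 RPM in siCtl and 47.1, 42.4 and 71.6 in siLarp1 at 24 h. Its log2 fold change was 0.69 (SE 0.33, limma adjusted p = 0.868). At 48 h it had 21.1 and 22.5 against 44.6 and 33.2 RPM and was below the filter. The groups of RMER15 did not overlap at either time, though only 3 to 19 reads lay behind each library's value.

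The most read elements showed no change past the threshold. MTD stood at 67.1, 73.3 and 77.5 RPM in siCtl and 100.8, 66.6 and 102.3 in siLarp1 at 24 h, a log2 fold change of 0.30 (SE 0.26, limma adjusted p = 0.926). At 48 h it stood at 112.7 and 130.6 against 89.3 and 112.8, a log2 fold change of -0.31 (SE 0.33, adjusted p = 0.947). MTD thus pointed in opposite directions at the 2 times, within the spread of the libraries. MT2_Mm had a log2 fold change of 0.86 with an SE of 0.65 at 24 h (limma adjusted p = 0.926). MMERGLN-int ranged from 40.9 to 105.7 RPM over the 10 libraries and MuLV-int from 39.8 to 97.2, with libraries of both treatments near either end of each range.

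Among PASS reads, poly(A) tails of the elements were longer than those of mRNA in every library. Here mRNA stands for reads aligned to mRNA only, without mitochondrial and pseudogene reads, while the elements kept reads joined to a gene. The PASS tag was on 34.9% of the elements' alignments and 82.5% of mRNA alignments, so the elements were the more strongly selected set. The median tail of PASS reads on the elements was 109 to 132 nt by library (mean 118 ± 7.39, SD, n = 10), against 97.1 to 104 nt for mRNA (mean 101 ± 2.66). The difference was 16.7 nt, in 10 of 10 libraries (exact sign-flip permutation test, p = 0.00195, 0.00326 after adjustment over 30 tests). The share of tails between 30 and 90 nt, the class around 60 nt, was correspondingly lower, at 30.002% against 38.7% (a difference of -8.67 percentage points with the same sign in 10 of 10 libraries). Tails under 30 nt made up 3.55% against 2.87%, a difference that did not pass (exact sign-flip p = 0.238). ERV1 alone was at 122 nt and ERVL-MaLR at 118 nt, and these 2 families were not told apart (a difference of 3.36 nt, exact sign-flip p = 0.34). Against the other repeats, the median tail of the elements minus that of ERVK was -7.27 nt, shorter in 9 of 10 libraries (exact sign-flip p = 0.00977, adjusted 0.0133), while it was longer than LINE by 30.4 nt and longer than SINE by 16.8 nt, both in 10 of 10 libraries. Reads joined to a gene had a median tail of 114 ± 8.56 nt and those without an mRNA alignment 120 ± 7.18 nt (SD, n = 10, exact sign-flip p = 0.0547).

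**Figure D5:**
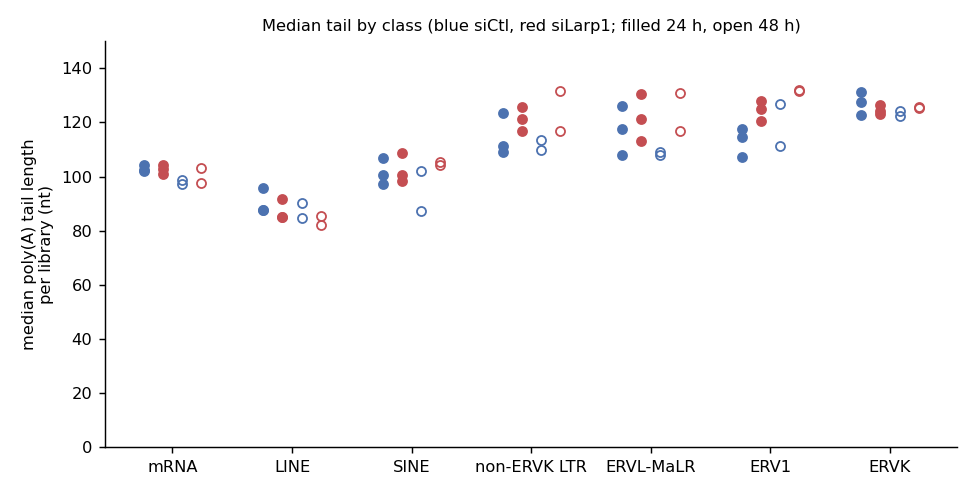
Median poly(A) tail length in nt per library (y axis) for mRNA, LINE, SINE, all LTR elements outside ERVK, ERVL-MaLR, ERV1 and ERVK (x axis), with 1 point per library (blue siCtl, red siLarp1, filled 24 h, open 48 h). The elements lie at 109 to 132 nt and mRNA at 97.1 to 104 nt, where mRNA stands for PASS reads aligned to mRNA only, without mitochondrial and pseudogene reads.

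Tail lengths of the elements after Larp1 depletion were compared in the same way. The median was 123, 109 and 111 nt in siCtl and 126, 117 and 121 nt in siLarp1 at 24 h, and 114 and 110 nt against 117 and 132 nt at 48 h. The mean difference of 9.52 nt did not pass (stratified exact permutation test, p = 0.0667). ERV1 tails were at 118, 115 and 107 nt in siCtl and 121, 128 and 125 nt in siLarp1 at 24 h, and at 127 and 111 nt against 132 and 132 nt at 48 h, with no overlap at either time. The mean difference of 12.1 nt had p = 0.0167 in the stratified exact permutation test, the smallest possible, and 0.0833 after adjustment over 20 tests. Without either siLarp1 library at 48 h the exact permutation p was 0.0833, and over all quality tags the difference was 4.25 nt (exact permutation p = 0.533). Each ERV1 value rests on 30 to 94 PASS reads. Tails under 30 nt on the elements were at 2.88%, 4.49% and 2.95% in siCtl and 4.46%, 4.81% and 1.45% in siLarp1 at 24 h, and 3.85% and 4.14% against 6.43% and 0% at 48 h, where the last is 0 of 118 reads. The groups overlapped, and the difference did not pass (exact permutation p = 0.883). ERVL, with 4 to 42 PASS reads per library, was not tested.

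Genes that silence these elements were described by their levels. The list of 40 held KRAB zinc finger corepressors, histone and DNA methyltransferases, and the SUMO pathway, and 39 were in the table. At 24 h 36 were tested and at 48 h 23, with 0 higher and 0 lower at an adjusted p of 0.05 in limma, beside 0.0179% and 0.0613% of all features called, so that 0 calls says nothing particular about the list. The median log2 fold change of the list was 0.05 and 0.10, beside 0.01 and 0.04 over all features. Sumo2 had 3022 reads, Trim28, the corepressor recruited by KRAB zinc fingers, had 1267, and Hdac1, a histone deacetylase, had 660. Trim28 had a log2 fold change of -0.05 at 24 h and 0.26 at 48 h (limma adjusted p = 0.982 and 0.914). Of 31 genes on a list for the 2-cell stage, 5 were in the table, among them Eif1ad with 221 reads, Nelfa with 117, Dppa4 with 60 and Dppa2 with 52. Reads of these genes do not by themselves show a 2-cell state, which was not tested. At 24 h 4 were tested and at 48 h 2, with 0 called in either direction at the same background, and no Zscan4 gene was listed.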

How the data were processed

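Poly(A) RNA of P19 cells was sequenced on R9 flow cells as direct RNA. The authors called bases with Guppy, assigned barcodes with Deeplexicon, aligned reads with Minimap2 2.20 (map-ont) to mm10 transcripts of GENCODE vM17 together with repeat copies and spike-ins, and estimated tails with Nanopolish polya. The deposited table has 1 line per read and aligned sequence. It gives the tail length in nt, the mapping quality score of the alignment, the barcode confidence as a fraction, and the first and last aligned base, and it was not filtered by the authors on any of these.

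Distinct reads were tallied per library and divided by all distinct reads of the library. All quality tags entered read shares, while tails and read ends used PASS reads. Group differences were tested by 2-sided exact permutation of library labels within time points, and classes within libraries by exact sign-flip permutation over 10 libraries. Single elements and genes with at least 30 reads at a time point were fitted with limma 3.58.1 (voom) in R 4.3.3, with Benjamini-Hochberg adjustment over all features. Other steps used Python 3.11.15, pandas 2.3.3, numpy 2.4.6 and scipy 1.17.1. Scripts were tested on simulated data with known changes. Copies were placed on genes with GENCODE vM21 gene models of the same GRCm38 build, an exon taking precedence over an intron. Strand was not considered, so a copy in an exon can be antisense to the gene. Spread between libraries and the reads per library set the precision, and no molecular identifiers were used.

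Elements were named by a rule: all families, the 6 elements with most reads in each, and MERVL-int, MT2_Mm, MMVL30-int and RLTR6-int. Copies, genes and elements outside the rule (such as ORR1D1) were named after their values were seen, for having the most reads, or a p under 0.05. The elements and gene lists were chosen with earlier results of these data known. Alternatives were PASS reads only, alignments in place of reads, reads with 1 line, barcode confidence of at least 0.9, mapping quality of at least 10, mean in place of median, other filters and scalings, limma trend, a block on library number, and leaving out each library. One gene of the silencing list is not reported here.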

Additional observations from a re-analysis of the deposited data

Results flagged for a closer look

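The effect of siLarp1 differed between 24 h and 48 h in 2 of 26 measures at an unadjusted p under 0.05, and neither passed after adjustment over the 26. The share of ERV1 tails between 30 and 90 nt was lower in siLarp1 at 24 h, at a difference of -4.91 percentage points, and higher at 48 h, at 7.54, a difference of 12.4 points (exact permutation test within times, p = 0.0333, adjusted 0.347). By library the shares were 28.1%, 31.4% and 35.1% in siCtl and 29.7%, 26.5% and 23.7% in siLarp1 at 24 h, and 20.6% and 27.7% against 33.3% and 30% at 48 h, on 30 to 94 reads each.

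The log2 ratio of the elements' reads to SINE reads, over all reads, was higher in siLarp1 by 0.10 at 24 h and had a difference of -0.13 at 48 h, so that the effect at 48 h minus that at 24 h was -0.23 (exact permutation test within times, p = 0.0167, adjusted 0.347). SINE reads stood at 5790 to 6351 RPM in siCtl and 6015 to 6628 in siLarp1 at 24 h, and at 6155 to 6793 against 6998 to 7270 at 48 h.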

How the results depend on the processing

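Of 452 values under an alternative, over 35 results, 401 were rated the same and 14 turned in direction. For effects, the same meant an unchanged direction and side of the threshold. For counts of calls it meant an equal or similar count. With the library number as a replicate block, whose exact permutation p cannot go below 0.0625, the read shares with no mRNA alignment kept their differences (103 RPM for all elements, 84.5 for ERVL-MaLR, 39.4 for ERVL) at exact permutation p = 0.0625, as did the ERV1 median tail (12.1 nt). Same-numbered libraries deviated together with r of 0.03, 0.14 and 0.16 at 24 h and 0.12 at 48 h, so the numbers were not taken as pairs. Over PASS reads the read share over all reads differed by 94.7 RPM at exact permutation p = 0.0333. As a percent of reads with no mRNA alignment (chosen after seeing the data) the difference was 0.174 points at exact permutation p = 0.667. Mitochondrial and pseudogene reads were the other choice added then. Direction turned for ERVL-MaLR over reads with 1 line (-12.0 RPM), ERV1 over alignments (-2.11), tails under 30 nt over all quality tags (0.549 points) and ERV1 tails of 30 to 90 nt at mapping quality of at least 10 (-1.85 points). The ERV1 median tail did not pass over all tags (4.25 nt), at barcode confidence of at least 0.9 (9.82 nt), at mapping quality of at least 10 (12.9 nt) or as a mean (10.8 nt). The cause was not tested. Calls over all features at 24 h were 1, and 2 with a filter of 10 reads, 11 with none, 0 by limma trend and 14 with the block. At 48 h they were 2, and 5, 15, 0 and 1, with 0 under median-of-ratios scaling and 1 with elements tallied without mRNA reads. The elements had 0 calls under each of these. Leaving out 1 library at a time moved the read share with no mRNA alignment of ERVL between 29.7 and 49.2 RPM, with exact permutation p = 0.0667 without library 24 of siLarp1 at 48 h, while all elements (76.5 to 129) and ERVL-MaLR (68.9 to 100.1) passed each time. Over all reads ERVL ranged from 22.9 to 49.1 and ERV1 from -27.0 to 46.3 RPM, without library 25 or library 24 of siCtl at 48 h. The ERV1 median tail ranged from 8.16 to 15.99 nt and did not pass without either siLarp1 library at 48 h, with exact permutation p up to 0.0833. The median tail of all elements ranged from 5.85 to 13.2 nt. Tail shares ranged, in percentage points, from -1.93 to 1.29 (under 30 nt) and -2.76 to 0.024 (30 to 90 nt) for all elements, -2.35 to 0.360 (under 30 nt) with no mRNA alignment, -1.85 to 1.57 (under 30 nt) in ERVL-MaLR and -0.450 to 3.09 (30 to 90 nt) in ERV1. The excess of tails under 30 nt over mRNA ranged from 0.510 to 1.13 points, passing without library 25 of siLarp1 at 48 h (exact sign-flip p = 0.0195). At 24 h all features gave 0 calls without any 1 of the siLarp1 libraries and up to 3 without library 22 of siCtl. At 48 h they gave 0 without either siLarp1 library and up to 5 without library 24 of siCtl.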
